A study of Mus musculus with 15 samples.

Results

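The TCF/LEF factors and the feedback regulators of WNT signaling were examined in organoids grown from mouse endometrial epithelium. They were chosen by name as 10 genes: the transcription factors *Tcf7*, *Tcf7l1*, *Tcf7l2* and *Lef1*, the R-spondin receptors *Lgr4* and *Lgr5*, the ubiquitin ligases *Znrf3* and *Rnf43*, and the intracellular inhibitors *Axin2* and *Nkd1*. Of these, 9 were analysed among the 16729 genes measured, and *Lef1* was not analysed here. RNA-seq was done in 15 samples of 4 groups: control + vehicle (n = 3), control + A83-01 (n = 4), *Smad2/3* cKO with vehicle (n = 4) and *Smad2/3* cKO + A83-01 (n = 4). Control mice carried the floxed alleles Smad2flox/flox; Smad3flox/flox. *Smad2/3* cKO mice carried Smad2flox/flox; Smad3flox/flox-Ltfcre/+, in which Cre recombinase is made from the lactoferrin gene *Ltf*. This driver is active mainly in uterine epithelium and was switched on early with estradiol. A83-01 inhibits the receptor kinases ALK4, ALK5 and ALK7, which activate SMAD2 and SMAD3, and DMSO was its vehicle. Female adult mice of 6 to 8 weeks were used unless stated otherwise, and no other age is stated for the organoids. All groups grew in a medium that held WNT3A, R-spondin and Noggin, so every sample was under added WNT stimulation, and a WNT-free reference was not analysed here.

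When a WNT ligand binds Frizzled and LRP receptors, β-catenin is no longer degraded, enters the nucleus and binds TCF/LEF proteins at target genes. TCF7 and LEF1 act mostly as activators when β-catenin is bound, TCF7L1 acts mostly as a repressor, and TCF7L2 can do either. Several targets limit the pathway in turn. AXIN2 rebuilds the complex that degrades β-catenin, NKD1 acts on Dishevelled, and ZNRF3 and RNF43 remove Frizzled from the cell surface unless R-spondins, bound to LGR4 or LGR5, clear them away.

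Total normalized counts were 20241771 to 24423127 per sample, and the read depth is unknown because these values were already scaled. *Smad2* was at 1045 to 1335 in control + vehicle and at 821 to 924 in *Smad2/3* cKO organoids (limma, adjusted p = 0.0656), and *Smad3* at 1532 to 1741 and 1170 to 1977 (adjusted p = 0.827). These values cover whole genes and do not show the floxed exons. Sums over marker genes differed between the groups, and are given in the order in which the groups were introduced. All 8 epithelial markers were measured, and their sum was 248909 to 321768, 158616 to 275292, 126219 to 236483 and 125465 to 193166, so both *Smad2/3* cKO groups lay below control + vehicle. The 8 did not move together. For *Smad2/3* cKO vs. control + vehicle the log2 difference was 0.05 for *Epcam*, −0.37 for *Cdh1* and −0.24 for *Cldn3* (adjusted p = 0.843, 0.324 and 0.338 from limma). It was −2.55 to −0.71 for *Krt8*, *Krt18*, *Krt19*, *Krt7* and *Cldn4*. For 6 of 8 stromal markers it was 27.4 to 190.7, 4.79 to 54.7, 2.96 to 24.7 and 3.99 to 128.6, and for 3 of 4 smooth muscle markers 55.1 to 192.5, 13.1 to 38.7, 5.75 to 23.1 and 10.8 to 43.5. For all 4 leukocyte markers it was 1261 to 2896, 3402 to 8757, 2116 to 5795 and 4032 to 7970. T cell markers were not analysed here. The labels speak of 4 mice per genotype, while the sample labels carry 4 different numbers in control and 7 in *Smad2/3* cKO organoids. One number stands on replicate 1 of both control groups and of the *Smad2/3* cKO organoids, and another on *Smad2/3* cKO replicate 2 and *Smad2/3* cKO + A83-01 replicate 1. What the numbers name is not given in the sources used here.

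The clearest changes were in the TCF factors. *Tcf7l1* fell 21.8-fold with A83-01 in control organoids and 52.0-fold in *Smad2/3* cKO organoids, and *Tcf7* fell 5.06-fold in *Smad2/3* cKO organoids. A gene was called when its Benjamini-Hochberg adjusted p from limma, over all genes tested, was below 0.01 and its fold change above 1.4 in either direction. Genes with a mean normalized count under 10 in the samples compared were not tested. *Tcf7l1* passed this filter only through control + vehicle. Fold changes are on the scale of log2(normalized count + 1).

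*Tcf7l1* (ENSMUSG00000055799), on chromosome 6 of GRCm38 from 72626378 to 72789254, encodes the repressive TCF. Its normalized counts were 131, 174 and 260 in the control + vehicle samples and 4.86, 15.6, 7.83 and 4.70 in the control + A83-01 samples. They were 10.8, 1.29, 0 and 4.61 in *Smad2/3* cKO and 2.51, 3.31, 4.62 and 0.785 in *Smad2/3* cKO + A83-01 organoids. Every sample of the 3 other groups lay below every control + vehicle sample, by a wide margin. The log2 difference was −4.44 for A83-01 in control organoids (standard error 0.53, 95% confidence interval −5.65 to −3.24, adjusted p = 0.00216 from limma). Against control + vehicle, *Smad2/3* cKO organoids differed by −5.70 (standard error 0.83, interval −7.58 to −3.82, adjusted p = 0.00275 from limma). Both calls rested on all 3 control + vehicle samples. Without control + vehicle replicate 1, 2 or 3, the adjusted p for A83-01 was 0.0142, 0.0191 and 0.0142 in turn, and for *Smad2/3* cKO 0.0143, 0.0172 and 0.0114, while the log2 differences stayed between −4.68 and −4.18 and between −5.93 and −5.44. In the same fits the genes called among all tested dropped from 295 to 53, 49 and 128 for A83-01 and from 970 to 280, 288 and 663 for *Smad2/3* cKO. In the 3 other groups *Tcf7l1* was at the lower end of what the values can resolve, so the sizes of these falls are uncertain. It was tested in both comparisons only because of control + vehicle, where its mean was 189, against 8.25 in control + A83-01 and 4.17 in *Smad2/3* cKO. Over the alternatives that kept every sample the log2 differences ran from −4.54 to −3.43 and from −6.08 to −3.82. Over all fits that left out 1 sample they ran from −4.77 to −4.18 and from −6.28 to −5.10.

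*Tcf7* (ENSMUSG00000000782), on chromosome 11 from 52252371 to 52283014, encodes TCF1. The control + vehicle samples were close together, at 348.9, 396.1 and 366.7 normalized counts. With A83-01 control organoids had 181, 135, 88.0 and 73.8. *Smad2/3* cKO organoids had 67.8, 61.6, 116 and 56.5, and *Smad2/3* cKO + A83-01 organoids 60.5, 161, 99.3 and 42.0. All 12 samples of the 3 other groups were thus below the 3 control + vehicle samples, and those 3 groups overlapped each other. *Smad2/3* cKO organoids differed from control + vehicle by −2.34 on the log2 scale (standard error 0.30, interval −3.01 to −1.67, adjusted p = 0.00147 from limma). Without control + vehicle replicate 2 the adjusted p was 0.0112. For A83-01 in control organoids the log2 difference was −1.71 (standard error 0.34, interval −2.48 to −0.95), and its adjusted p of 0.0190 did not pass the threshold. It passed without control + A83-01 replicate 1 (adjusted p = 0.00928) and when samples were weighted by their quality (0.00369), and ran from 0.00369 to 0.0931 over all alternatives.

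*Tcf7l2* (ENSMUSG00000024985), on chromosome 19 from 55741820 to 55933654, encodes TCF4, the main TCF of intestinal epithelium. It was at 180, 178 and 253 in control + vehicle and at 95.5, 154, 52.4 and 59.8 in control + A83-01 organoids. In *Smad2/3* cKO organoids it was at 125, 144, 91.4 and 95.5, and with A83-01 added at 72.1, 68.6, 81.4 and 41.2. The control + vehicle samples were again the highest, but the gap was narrower than for *Tcf7* and *Tcf7l1*. Its log2 differences from control + vehicle, −1.27 for A83-01 (interval −2.20 to −0.34, adjusted p = 0.102) and −0.84 for *Smad2/3* cKO (interval −1.46 to −0.21, adjusted p = 0.0651), did not pass the threshold in limma.

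**Figure D1:**
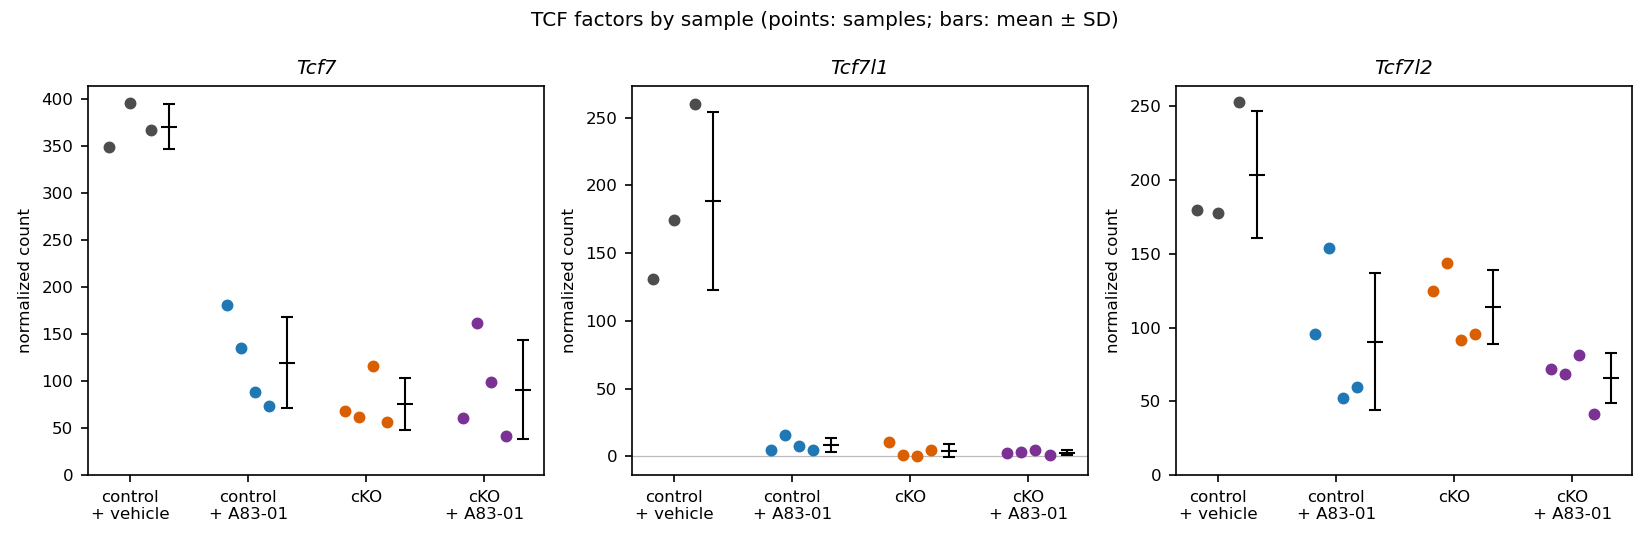
Normalized counts of *Tcf7*, *Tcf7l1* and *Tcf7l2* (y axes, from 0) in the samples of the 4 groups (points), with the mean and SD beside them; cKO stands for *Smad2/3* cKO. The 3 control + vehicle samples lie above all 12 other samples for each gene, and *Tcf7l1* is at 15.6 or less in those 12.

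To compare levels between the 3 factors, normalized counts were divided by the length of the longest annotated coding transcript (2471 bases for *Tcf7*, 3042 for *Tcf7l1* and 3715 for *Tcf7l2*). Summed over the 3 genes, the level was 267 ± 34.8 normalized counts per kb (SD, n = 3) in control + vehicle, 75.4 ± 29.5 (SD, n = 4) in control + A83-01, 62.6 ± 9.01 (SD, n = 4) in *Smad2/3* cKO and 55.4 ± 24.4 (SD, n = 4) in *Smad2/3* cKO + A83-01 organoids. The lowest control + vehicle sample, at 233, was above the highest of the others, at 101. *Tcf7* made up 56.7% ± 6.60 of this sum in control + vehicle and 64.5% ± 8.04, 48.2% ± 11.98 and 63.7% ± 9.47 in the other groups, in the order above. The share of the repressor *Tcf7l1* was 22.8% ± 5.01 in control + vehicle and 3.71% ± 1.63, 2.29% ± 2.49 and 1.61% ± 0.646 in the others, and its ranges did not overlap (18.5% to 28.3% against 0% to 5.47%). The share of *Tcf7l2* was 20.5% ± 2.29 in control + vehicle and 31.8% ± 7.04, 49.6% ± 10.9 and 34.7% ± 9.35 in the others. In bulk RNA, fewer cells that express a gene and less RNA per cell cannot be told apart.

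**Figure D2:**
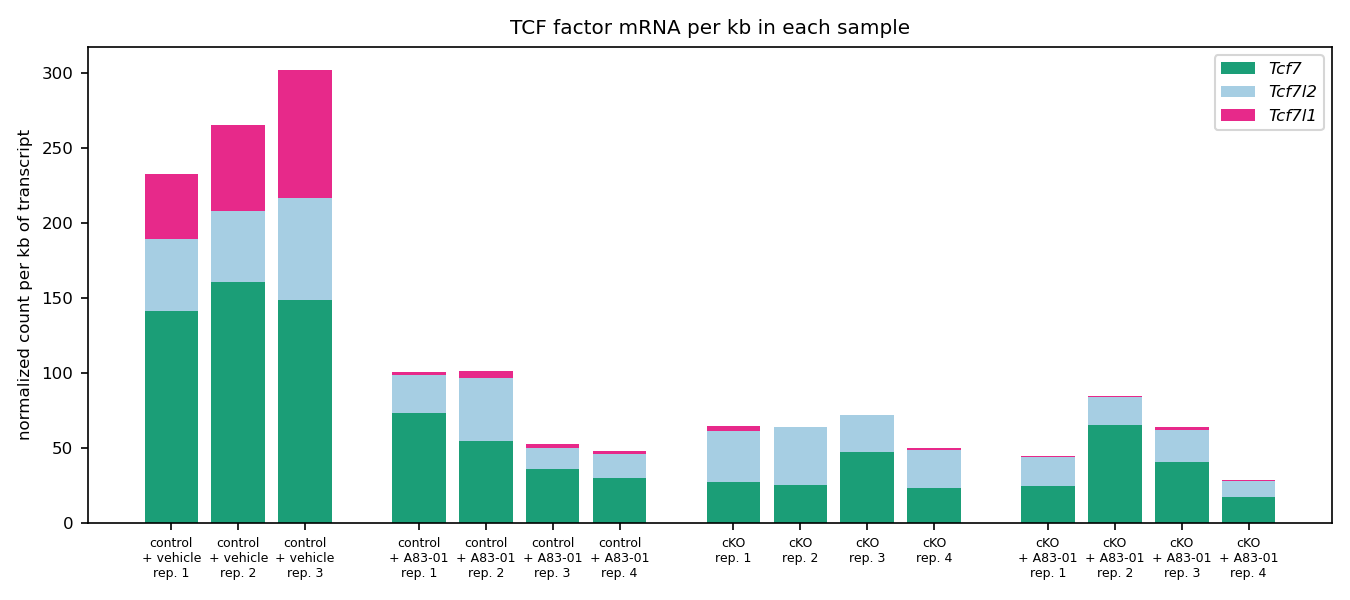
Normalized counts per kb of transcript (y axis) of *Tcf7*, *Tcf7l2* and *Tcf7l1*, stacked for each of the 15 samples (x axis); cKO stands for *Smad2/3* cKO. The bars of control + vehicle reach 233 to 302 and those of the other samples 28.3 to 101, and the *Tcf7l1* part is 18.5% to 28.3% of the bar in control + vehicle and at most 5.47% elsewhere.

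The feedback regulators gave no call in any comparison, and 2 of them were too low to be tested. *Axin2* (ENSMUSG00000000142), on chromosome 11 from 108920349 to 108950783, is widely used as a readout of WNT signaling. Its promoter is shown because *Axin2* is the member best known as a direct TCF target. The 250 bases before the transcription start (GRCm38.p6, from RefSeq, plus strand, chr11:108920099-108920348) are given 5′ to 3′, with matches on either strand in capitals. The motifs searched were that of TCF/LEF, read as CTTTGAT, its variant read as CTTTGAA, and that of SMAD proteins, read as GTCTG.
Axin2 promoter: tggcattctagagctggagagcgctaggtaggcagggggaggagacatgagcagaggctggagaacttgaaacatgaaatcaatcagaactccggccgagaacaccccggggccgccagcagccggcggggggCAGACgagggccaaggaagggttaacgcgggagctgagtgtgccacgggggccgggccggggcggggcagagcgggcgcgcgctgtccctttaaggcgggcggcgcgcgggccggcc
The capitals mark 1 match to GTCTG on the opposite strand, and the window holds no match to either form of the TCF/LEF motif. GTCTG was in 42.2% and a TCF/LEF motif in 7.48% of the 32851 promoter windows of this length. Promoter sequences were found for 7 of the 9 genes, in 10 windows, of which those of *Rnf43* also held GTCTG and none held a TCF/LEF motif.

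*Axin2* was at 11.3, 24.3 and 4.28 normalized counts in control + vehicle and at 3.45, 2.25, 0 and 0 in control + A83-01 organoids, and these groups did not overlap. It was at 1.31, 1.31, 20.3 and 0 in *Smad2/3* cKO and at 0, 2.65, 3.74 and 0 in *Smad2/3* cKO + A83-01 organoids. Replicate 3 of the *Smad2/3* cKO organoids thus lay inside the control + vehicle range and its 3 fellow samples below it. Fitted without the filter on low values, the log2 difference of *Axin2* was −2.60 for A83-01 in control organoids (interval −4.41 to −0.78, adjusted p = 0.102 from limma) and −1.85 for *Smad2/3* cKO vs. control + vehicle (interval −4.18 to 0.47, adjusted p = 0.274 from limma). Without *Smad2/3* cKO replicate 3 the second of these was −2.76 (adjusted p = 0.0484).

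*Nkd1* (ENSMUSG00000031661), on chromosome 8 from 88521354 to 88594884, was at 0 to 7.60 in control + vehicle and at 0 to 13.5 in control + A83-01 organoids. It was at 0, 0, 1.94 and 2.81 in *Smad2/3* cKO and at 4.67, 19.5, 9.99 and 1.46 in *Smad2/3* cKO + A83-01 organoids. All 4 groups overlapped, and without the filter its adjusted p was 0.535 or higher in each comparison of 2 groups. The interval excluded 0 only for A83-01 in *Smad2/3* cKO organoids, with a log2 difference of 2.03 (interval 0.32 to 3.74, unadjusted p = 0.0241 and adjusted p = 0.994 from limma). At these levels no difference in *Nkd1* passed the thresholds.

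*Lgr5* (ENSMUSG00000020140), on chromosome 10 from 115450311 to 115587780, marks stem cells in several epithelia and was also low. It was at 13.6, 21.4 and 0 in control + vehicle, and at 17.1, 17.8, 15.5 and 16.0 in control + A83-01. In *Smad2/3* cKO organoids it was at 28.8, 40.0, 17.4 and 21.8, and in *Smad2/3* cKO + A83-01 at 22.2, 54.6, 11.4 and 13.4. The *Smad2/3* cKO samples ran higher than control + vehicle, with 1 sample at 17.4 inside its range, and the log2 difference of 1.96 had a wide interval (−0.35 to 4.26, adjusted p = 0.214 from limma). Without control + vehicle replicate 3, where *Lgr5* was listed at 0, it was 0.57 (adjusted p = 0.550). For A83-01 in control organoids it was 1.35 (interval −0.98 to 3.68, adjusted p = 0.502), and −0.04 without that replicate.

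*Lgr4* (ENSMUSG00000050199), on chromosome 2 from 109917647 to 110014257, was the higher of the R-spondin receptors, at 34.5 to 85.6 normalized counts per kb as group means against 2.48 to 5.73 for *Lgr5*. The number in the sample label falls into 2 series, below and above 390, and in control organoids *Lgr4* split by this series rather than by treatment. Replicates 1 and 2 of both control groups, with numbers below 390, had 567 and 611 with vehicle and 427 and 805 with A83-01. Those with numbers above 390 had 122 with vehicle (replicate 3) and 103 and 107 with A83-01 (replicates 3 and 4). *Smad2/3* cKO organoids had 164 and 218 in the samples numbered below 390 and 128 and 188 in those above. *Smad2/3* cKO + A83-01 organoids, all with numbers below 390, had 202, 104, 170 and 176. The *Smad2/3* cKO samples with numbers below 390 thus lay below the control samples with numbers below 390, with or without A83-01, while samples with numbers above 390 had 103 to 122 in control and 128 to 188 in *Smad2/3* cKO organoids.

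The log2 difference of *Lgr4* between *Smad2/3* cKO and control + vehicle was −1.02 (interval −2.20 to 0.16, adjusted p = 0.206 from limma). Without control + vehicle replicate 3, the 1 sample of that group numbered above 390, it was −1.77 (adjusted p = 0.00520), and with the number series as a covariate −0.84 (0.189). Between the genotypes under A83-01 it was −0.65 (adjusted p = 0.818) and with the covariate −1.88 (0.0340), above the threshold of 0.01. What the number series stands for is not given in the sources used here, and its part in *Lgr4* was not tested. The genes on both sides, *Lin7c* and *Ccdc34*, did not share this split: in the control samples numbered below 390 they had 1549 to 3198 and 199 to 392, and in those above 390 they had 1867 to 2637 and 284 to 313. A gene farther along the chromosome, *Ano3*, did split by the series in control organoids. It had 19.7 to 79.8 in the control samples below 390 and 10.3 to 18.5 in those above. *Mettl15*, on the other side of *Lgr4*, split in the opposite direction, with 103 to 145 below 390 and 167 to 249 above. The share of all genes that split by the series was not computed.

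**Figure D3:**
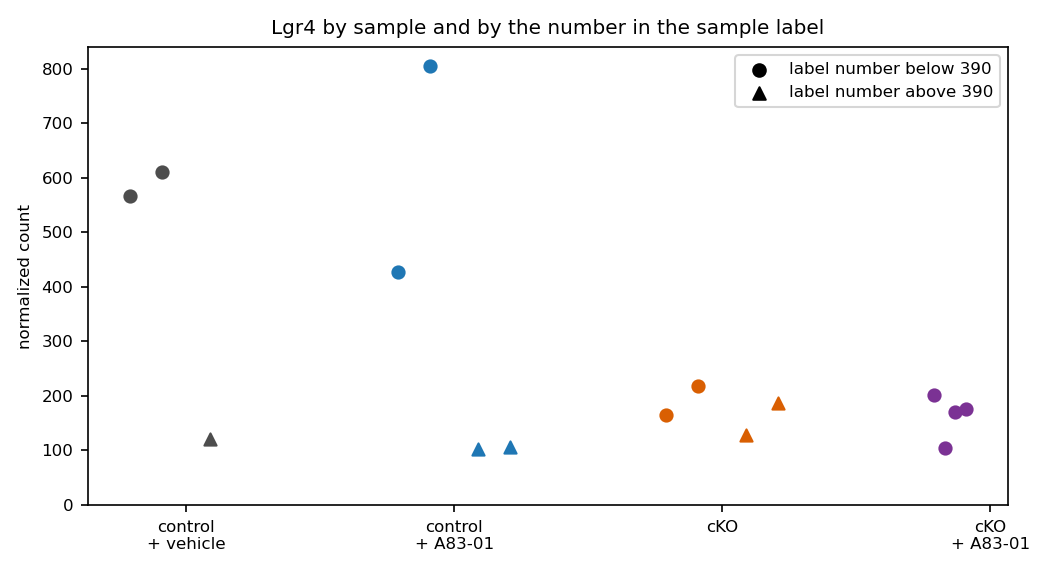
Normalized counts of *Lgr4* (y axis, from 0) by group (x axis), with circles for samples whose label number is below 390 and triangles for those above; cKO stands for *Smad2/3* cKO. The control circles lie at 427 to 805 and the control triangles at 103 to 122 with either treatment, while the *Smad2/3* cKO samples lie at 104 to 218.

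*Znrf3* (ENSMUSG00000041961), on chromosome 11 from 5276324 to 5444847, was at 97.3, 99.1 and 81.9 in control + vehicle and at 150, 57.2, 60.4 and 73.6 in control + A83-01 organoids. It was at 101, 212, 68.1 and 50.7 in *Smad2/3* cKO and at 85.9, 77.5, 66.0 and 53.2 in *Smad2/3* cKO + A83-01 organoids. The groups overlapped throughout. *Smad2/3* cKO and control + vehicle differed by 0.01 on the log2 scale, with an interval from −1.05 to 1.06 (adjusted p = 0.992 from limma).

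*Rnf43* (ENSMUSG00000034177), on chromosome 11 from 87662722 to 87735539, was the higher ligase, at 68.4 to 104.6 normalized counts per kb as group means against 11.2 to 17.1 for *Znrf3*. It was at 396.5, 354 and 602 in control + vehicle and at 174, 326, 329 and 351 in control + A83-01, which lay close together without overlapping. It was at 261, 667, 385 and 373.2 in *Smad2/3* cKO and at 470, 220, 441 and 343 in *Smad2/3* cKO + A83-01 organoids. The log2 difference for A83-01 in control organoids was −0.62 (interval −1.33 to 0.08, adjusted p = 0.286 from limma), and for *Smad2/3* cKO vs. control + vehicle −0.14 (interval −0.87 to 0.58, adjusted p = 0.794).

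**Figure D4:**
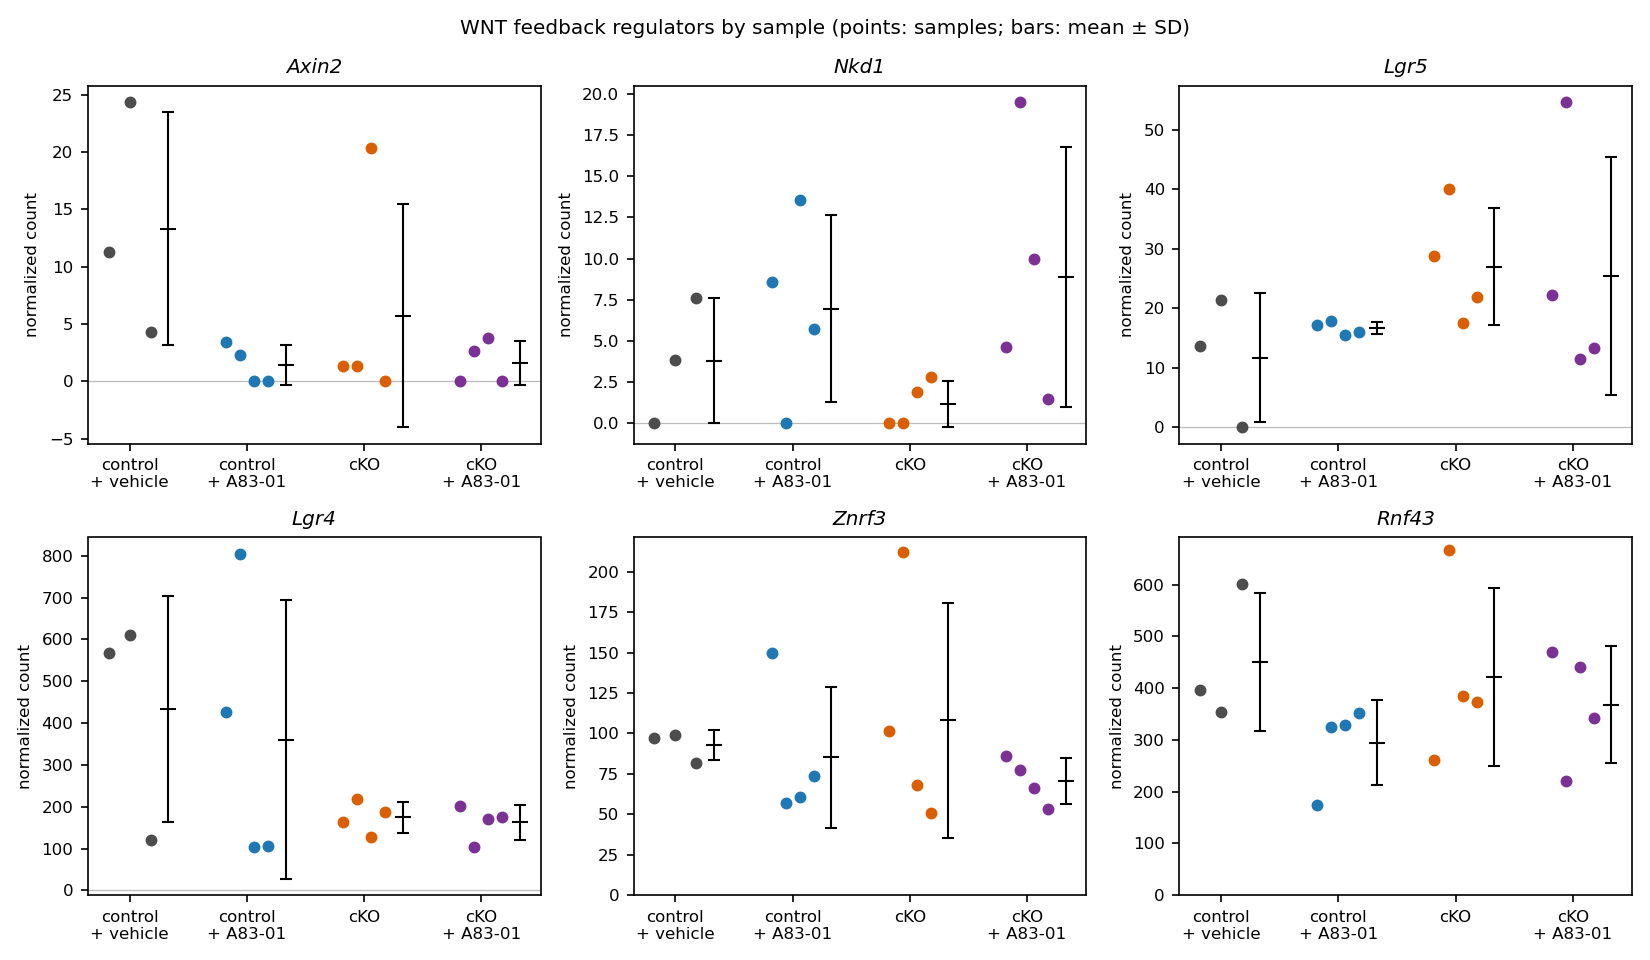
Normalized counts (y axes) of *Axin2*, *Nkd1*, *Lgr5*, *Lgr4*, *Znrf3* and *Rnf43* in the samples of the 4 groups (points), with the mean and SD beside them; cKO stands for *Smad2/3* cKO. *Axin2*, *Nkd1* and *Lgr5* stay at 54.6 or less in every sample, and of the 6 genes only *Axin2* and *Rnf43* separate control + vehicle from control + A83-01.

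Counted over the members, A83-01 in control organoids gave 1 call among 7 tested (*Tcf7l1*, lower), where 2.27% of the 13009 genes tested were called in either direction and 1.08% were called lower. The groups did not overlap for 4 of the 7 (the TCF factors and *Rnf43*), against 21.7% of genes tested. The median log2 difference of the 7 was −0.62, and −0.02 over all genes tested. *Smad2/3* cKO vs. control + vehicle gave 2 calls among 7 tested (*Tcf7* and *Tcf7l1*, both lower), where 7.38% of the 13149 genes tested were called and 3.3% were called lower. The groups did not overlap for 3 of the 7, the TCF factors, against 30.8% of genes tested, a share that is near that of all genes. The median of the 7 was −0.84, and 0.00 over all genes tested. The control + vehicle samples are shared by these comparisons, and *Tcf7l1* passed the filter in both only through them.

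In *Smad2/3* cKO organoids A83-01 made no called difference to any member. There 0 of 6 members tested by limma were called, as were 0% of the 12998 genes tested. At an unadjusted p below 0.05 there were 1 member, *Tcf7l2*, and 554 genes. *Tcf7l2* was also the 1 member whose groups did not overlap, against 2.9% of genes, with a log2 difference of −0.80 (interval −1.47 to −0.14, adjusted p = 0.994 from limma). The interval for *Tcf7* was −0.82 to 1.11, so a further change of up to about that size cannot be told from none. *Tcf7l1*, with a mean below 10, was not tested between the *Smad2/3* cKO groups, and without the filter its log2 difference was 0.00 (interval −1.73 to 1.74).

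With A83-01 present in both genotypes, 0 of 6 members were called by limma, as were 0.0232% of 12915 genes, and 0 members had an unadjusted p below 0.05, against 1229 genes. None of the 6 had groups without overlap, against 6.12% of genes. *Tcf7l1*, too low to be tested, was at 4.70 to 15.6 in control + A83-01 and at 0.785 to 4.62 in *Smad2/3* cKO + A83-01 organoids, which did not overlap (without the filter, log2 difference −1.25, interval −2.54 to 0.03, adjusted p = 0.583 from limma). Between *Smad2/3* cKO with vehicle and control with A83-01, 0 of 6 members were called, as were 0% of 12980 genes. At an unadjusted p below 0.05 there were 0 members and 826 genes, and 0 members had groups without overlap, against 3.45% of genes. The log2 difference there was −0.63 for *Tcf7* (interval −1.46 to 0.20) and 0.44 for *Tcf7l2* (interval −0.40 to 1.28), so deletion and inhibitor were not distinguished for these factors, within intervals of that width.

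**Figure D5:**
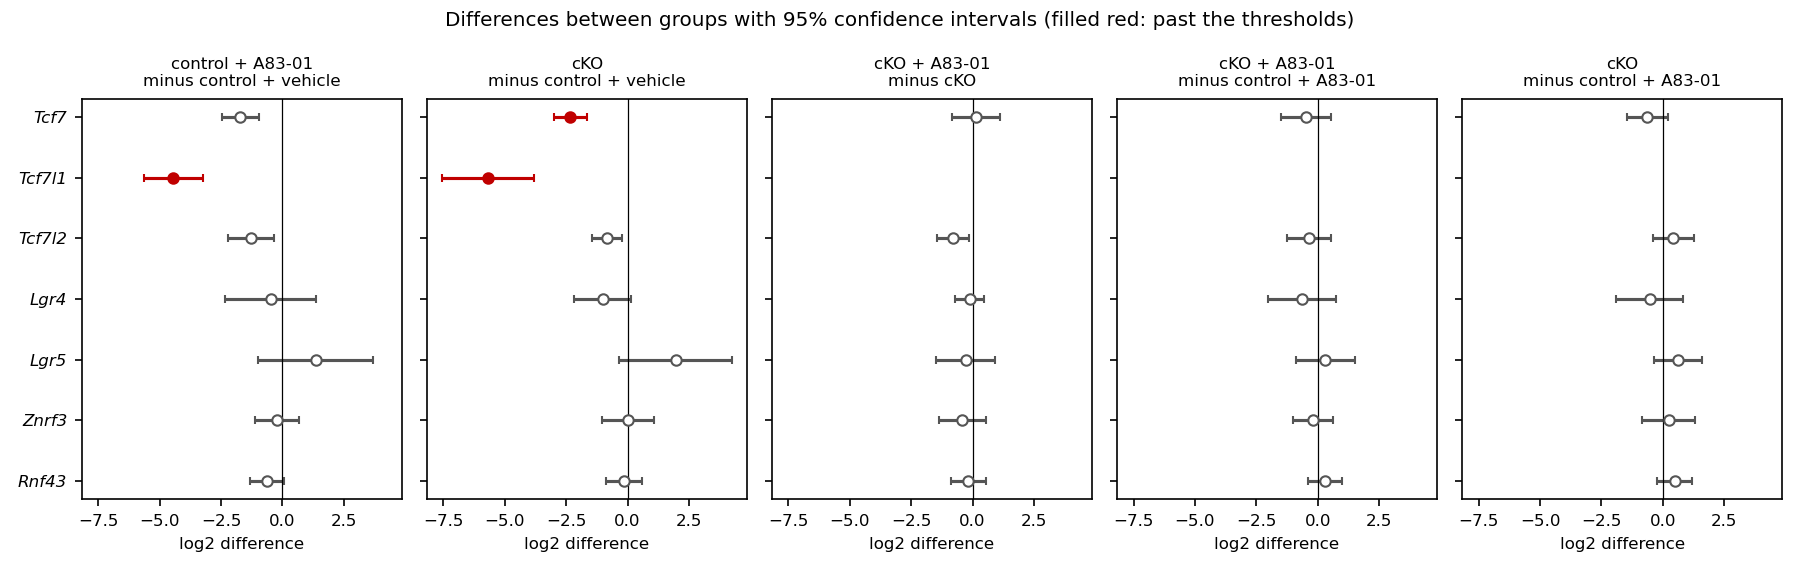
Log2 differences (x axes) of the members tested, with 95% confidence intervals, in the 5 comparisons of 2 groups; cKO stands for *Smad2/3* cKO, and red filled points passed the thresholds. *Tcf7l1* in the first panel and *Tcf7* and *Tcf7l1* in the second are past the thresholds, and *Tcf7l1* was too low to be tested in the other panels.

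The dependence of the A83-01 effect on genotype was tested directly, as the effect in *Smad2/3* cKO minus that in control organoids, in 1 fit of all 15 samples. None of the 7 members tested was called (0 of 7 by limma, against 0.551% of 13066 genes), and 2 had an unadjusted p below 0.05, against 1865 genes. These were *Tcf7l1*, with a difference of 4.45 on the log2 scale (interval 2.20 to 6.69, adjusted p = 0.0479 from limma), and *Tcf7*, with 1.85 (interval 0.61 to 3.09, adjusted p = 0.137). That of *Tcf7l1* passed the thresholds with a pseudocount of 10 (3.33, adjusted p = 0.000961), and its adjusted p ran from 0.000961 to 0.124 over the alternatives. *Tcf7l1* was tested in this fit only because of control + vehicle, where its mean was 189, against 8.25, 4.17 and 2.81 in the other groups. With *Smad2/3* cKO organoids already at 0 to 10.8, a further fall with A83-01 could hardly be seen there. For *Tcf7l1* the test therefore cannot show whether the effect of A83-01 depends on genotype.

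Other genes of the pathway were taken from a list of 58, of which 47 were analysed. They were grouped by role into the complex that degrades β-catenin with its signal transducers (10 analysed), nuclear partners of TCF/LEF (13), co-receptors and the R-spondin system (6), secreted antagonists (6) and other known targets (12). All calls fell among the other known targets. For A83-01 in control organoids 1 of 43 tested was higher and 1 lower, with a median log2 difference of −0.29. Over all genes tested 2.27% were called, with a median of −0.02. At an unadjusted p below 0.05 from limma there were 15 of the 43, against 22.2% of all genes. The groups did not overlap for 14 of the 43, against 21.7% of all genes. With the pairing of control samples by label number as a block there were 3 calls in place of 2, *Ccnd2* being the one added. In *Smad2/3* cKO organoids, against control + vehicle, 1 of 43 was higher and 4 lower, with a median of −0.21. Over all genes tested 7.38% were called, with a median of 0.00. Of the 43, 15 had an unadjusted p below 0.05 from limma and 14 had groups without overlap. These shares were near the 33.7% and 30.8% of all genes. With replicate numbers as a block 1 pathway gene was called there, *Tnfrsf19*, and the other 4 were not (adjusted p = 0.0218 to 0.0450 from limma). No pathway gene was called in the other 3 comparisons of 2 groups (0 of 41, 42 and 41 tested by limma, with 0, 5 and 5 at an unadjusted p below 0.05). Over all genes tested 0%, 0.0232% and 0% were called there. An unadjusted p below 0.05 from limma was found for 4.26%, 9.52% and 6.36% of all genes. Over the fits that left out 1 sample, the calls ran from 0 to 2 for A83-01 in control organoids, with 0 without control + vehicle replicate 1 or 2. They ran from 1 to 5 for *Smad2/3* cKO, with 1 without control + vehicle replicate 1 or 2, 2 without control + vehicle replicate 3 or *Smad2/3* cKO replicate 4, and 3 without *Smad2/3* cKO replicate 1.

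*Tnfrsf19* (ENSMUSG00000060548) encodes TROY, a receptor of the TNF receptor family known as a WNT target, and was the 1 pathway gene called higher. Its normalized counts were 655, 620 and 1001 in control + vehicle and 2332, 2336, 3019 and 3366 in control + A83-01 organoids. They were 3658, 4460, 3590 and 3747 in *Smad2/3* cKO and 4423, 3463, 3453 and 3233 in *Smad2/3* cKO + A83-01 organoids. Every sample with A83-01 or without SMAD2/3 was well above the highest control + vehicle sample. The log2 difference was 1.88 for A83-01 in control organoids (standard error 0.22, adjusted p = 0.00205 from limma) and 2.38 for *Smad2/3* cKO (standard error 0.18, adjusted p = 0.000178 from limma). The first of these had an adjusted p of 0.0152 and 0.0150 without control + vehicle replicates 1 and 2. The effect of A83-01 differed by genotype (−1.97, interval −2.51 to −1.43, adjusted p = 0.000863 from limma), with a log2 difference of −0.09 in *Smad2/3* cKO organoids. It remained past the thresholds in each fit that left out 1 sample.

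*Ephb2* (ENSMUSG00000028664) and *Ephb3* (ENSMUSG00000005958) encode Eph receptors that are WNT targets in intestinal crypts. *Ephb2* was at 263, 240 and 304 in control + vehicle and at 21.3, 47.0, 15.9 and 5.35 in control + A83-01 organoids. It was at 1.09, 39.0, 4.84 and 9.91 in *Smad2/3* cKO and at 3.08, 0, 1.92 and 1.53 in *Smad2/3* cKO + A83-01 organoids. Like *Tcf7l1* it was far above the rest in control + vehicle, and it was at 3.08 or less in every *Smad2/3* cKO + A83-01 sample. *Smad2/3* cKO replicates 2 and 4, at 39.0 and 9.91, lay within the range of control + A83-01. It fell below that range in replicates 1 and 3. *Ephb2* fell by 3.87 on the log2 scale with A83-01 in control organoids (standard error 0.62, adjusted p = 0.00816 from limma) and by 4.98 in *Smad2/3* cKO organoids (standard error 0.86, adjusted p = 0.00528 from limma). Both calls were lost without any 1 of the 3 control + vehicle samples (adjusted p = 0.0359 to 0.0455 and 0.0179 to 0.0270). The first was also lost without control + A83-01 replicate 1 or 3 (adjusted p = 0.0143 and 0.0228) and the second without *Smad2/3* cKO replicate 3 or 4 (0.0106 and 0.0136).

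*Ephb3* was at 550, 665 and 655 in control + vehicle, at 187 to 432 in control + A83-01, at 195 to 290 in *Smad2/3* cKO and at 153 to 303 in *Smad2/3* cKO + A83-01 organoids. It fell by 1.29 on the log2 scale in *Smad2/3* cKO organoids (standard error 0.20, adjusted p = 0.00352 from limma), and without control + vehicle replicate 1, 2 or 3 the adjusted p was 0.0129, 0.0196 and 0.0123. *Ccnd2* (ENSMUSG00000000184), which encodes cyclin D2, was at 2559, 934 and 454 in control + vehicle and at 27.6 to 123 in *Smad2/3* cKO organoids. It fell by 4.03 on the log2 scale (standard error 0.69, adjusted p = 0.00520 from limma), with a wide spread in control + vehicle. In control + A83-01 organoids it was at 300.4, 302, 40.7 and 63.7, below every control + vehicle sample, and in *Smad2/3* cKO + A83-01 at 22.6 to 189. The log2 difference for A83-01 in control organoids was −3.04 (interval −4.89 to −1.18), and its adjusted p of 0.0584 from limma did not pass the threshold. With the paired samples as a block it was −2.72 and passed (adjusted p = 0.00651 from limma). *Myc* (ENSMUSG00000022346), the growth regulator, was at 2853, 2676 and 2288 in control + vehicle and at 1695, 1325, 1641 and 1314 in *Smad2/3* cKO organoids. It fell by 0.81 on the log2 scale (standard error 0.15, adjusted p = 0.00675 from limma) and was at 1948 to 3094 in control + A83-01 organoids (log2 difference −0.14, adjusted p = 0.733). The call of *Ccnd2* was lost without control + vehicle replicate 1 or 2 or *Smad2/3* cKO replicate 1 or 4 (adjusted p = 0.0119 to 0.0241). That of *Myc* was lost in each fit that left out 1 sample other than *Smad2/3* cKO replicate 3 (adjusted p = 0.0107 to 0.0337).

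Some marker genes also differed between control + vehicle and other groups. Of those given here, *Acta2* and *Ptprc* separated control + vehicle from all other samples, while *Col1a2*, *Cldn4* and *Trp63* overlapped between control + vehicle and control + A83-01. *Acta2*, the smooth muscle actin, was at 53.6 to 176 in control + vehicle and at 4.48 to 43.5 in the other samples, so it was lower where the TCF factors were lower. It fell by 3.12 on the log2 scale in *Smad2/3* cKO organoids (adjusted p = 0.00841 from limma) and differed by −2.43 with A83-01 in control organoids (adjusted p = 0.0308). *Col1a2*, a fibrillar collagen, was at 11.4 to 70.5 in control + vehicle and at 0 to 8.81 in *Smad2/3* cKO organoids (log2 difference −3.70, adjusted p = 0.0398 from limma). *Cldn4*, a claudin of epithelial tight junctions, was at 2573 to 5810 and 472 to 1396 in these groups and fell by 2.55 on the log2 scale (adjusted p = 0.00455 from limma). The leukocyte gene *Ptprc*, which encodes CD45, was at 12.5 to 38.5 in control + vehicle and at 68.5 to 514 in the other samples. It rose by 3.33 on the log2 scale in *Smad2/3* cKO organoids (adjusted p = 0.00228 from limma), with a difference of 2.82 for A83-01 in control organoids (adjusted p = 0.0190). The other leukocyte markers overlapped between *Smad2/3* cKO and control + vehicle and were not called. *Cd68*, *Csf1r* and *Adgre1* differed by 0.90, 1.41 and 1.82 (adjusted p = 0.125, 0.171 and 0.507 from limma). *Adgre1* was at 351 in *Smad2/3* cKO replicate 2 and at 9.01 or less in every other sample. *Trp63*, a marker of basal epithelium, was at 0 to 4.91 in control + vehicle and at 25.6 to 109 in *Smad2/3* cKO organoids, and rose by 4.64 (adjusted p = 0.00714 from limma). Other basal markers did not all follow it. *Krt6a* differed by −2.61 (adjusted p = 0.0316 from limma), *Krt14* was at 4.84 to 21.1 and 0 to 7.32 in these groups, and *Krt5* at 0 to 1.84 and 0 to 19.8. The sum over all 4 basal markers was 81.3 to 234.9 in control + vehicle and 62.2 to 124.9 in *Smad2/3* cKO organoids. The part of these markers in the results was not tested.

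How the members varied together was described over the 15 samples on the log2 scale. Once group means were removed, the strongest positive correlation among the 36 pairs of members was that of *Tcf7* and *Axin2* (Pearson r = 0.80, n = 15 samples), and the strongest negative one that of *Lgr4* and *Nkd1* (r = −0.65). In the *Smad2/3* cKO group, replicate 3 had both the highest *Tcf7* (116) and the highest *Axin2* (20.3). *Tcf7* and *Tcf7l1*, with r = 0.81 over all samples, had r = 0.03 once group means were removed. Some of the samples share a label number, and *Axin2* and *Nkd1* were at low levels throughout.

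The genes whose levels followed a member most closely over the 15 samples were taken from the 13066 genes with a mean of at least 10, as the 3 with the highest Pearson r. For *Tcf7* they were *Prep*, *Amigo2* and *Mamld1* (r = 0.96, 0.95 and 0.95). For *Axin2* they were *Tmeff1*, *Vasn* and *Sulf2* (r = 0.88, 0.88 and 0.87), and for *Lgr5* they were *Izumo4*, *Paxx* and *Tnfsfm13* (r = 0.89, 0.87 and 0.86). These are descriptions over samples that include the differences between groups.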

How the data were processed

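RNA was taken from endometrial epithelial organoids, and 15 samples in 4 groups were measured, grouped by genotype and treatment in the sample labels. The authors prepared libraries from small amounts of RNA, estimated counts per gene with Salmon 1.4.0 on GRCm39 and scaled them with DESeq2 1.32.0. The deposited values, named signal, are estimated counts divided by a size factor per sample. As such scaling gives, the median ratio to the geometric mean, over 12745 genes detected in every sample, was 1.01137 in each. Between 2.60% and 5.81% of the values below 12 lay within 0.004 of a whole multiple of the best single step. Read counts could therefore not be recovered, and tests for raw counts were not run. Depth is therefore unknown, and the number of samples and the level of a gene limit the precision.

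Groups were compared in R 4.3.3 with limma 3.58.1, using a trended eBayes step after lmFit, on log2(value + 1). Each comparison was fitted to its own samples and the interaction to all, for genes whose mean reached 10, with Benjamini-Hochberg adjustment over all genes tested. Thresholds were an adjusted p of 0.01 and a fold change of 1.4 in either direction. The fits were tested on simulated data. Symbols were matched for 16697 genes. Positions and transcript lengths are from GENCODE M21 on GRCm38, not the authors' build. The labels speak of 4 mice per genotype, and label numbers differ within each group. The label numbers of control + vehicle replicates 1 to 3 are also those of control + A83-01 replicates 1 to 3, and these pairs deviated together from their group means (r across genes 0.354 to 0.423 for the 3 pairs). They were treated as paired in the replicate block. The 9 control pairs without a shared number had r of −0.359 to 0.347, the highest for control + vehicle replicate 3 with control + A83-01 replicate 4. *Smad2/3* cKO replicate 1 and *Smad2/3* cKO + A83-01 replicate 2, also without a shared number, had 0.394, so r alone does not single out the pairs. The members and the lists were chosen with earlier results of these data known. All 10 members are described, with the pathway genes past the thresholds in any comparison of 2 groups (at most 12) and the 3 genes most like *Axin2*, *Tcf7* and *Lgr5*. As alternatives, the pseudocount was set to 0.5 or 10, the filter dropped or raised to 50, values quantile-normalized, the trend dropped, samples weighted, and all 4 groups fitted together. The replicate block, a covariate for the label's number series (below 390 or not), an adjusted p of 0.05, calls without the fold threshold and fits without each sample were also tried. Leaving out samples for the named pathway genes and for *Axin2* was added after seeing the data.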

Additional observations from a re-analysis of the deposited data

Results flagged for a closer look

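In the 27 groups of 4 samples that could be examined for the 9 members, 2 held 1 sample that stood far from the rest. Chance gives about 1 in 20 for normally distributed values, and 2 of 27 is near that rate. The values were not log-transformed for this. *Axin2* was at 20.3 normalized counts in *Smad2/3* cKO replicate 3 and at 0 to 1.31 in the other samples of that group. *Rnf43* was at 174 in control + A83-01 replicate 1 and at 326 to 351 in the other samples of that group, and without this sample the log2 difference of *Rnf43* for A83-01 in control organoids was −0.39 in place of −0.62 (adjusted p = 0.403 from limma).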

How the results depend on the processing

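Across the 6 comparisons the number of members called kept to within 1.5 times its value under most alternatives. For A83-01 in control organoids it rose from 1 to 2 (*Tcf7* and *Tcf7l1*) with sample weights and with an adjusted p below 0.05, and ran from 0 to 2 when samples were left out, with 0 without any 1 of the control + vehicle samples and 2 without control + A83-01 replicate 1. For *Smad2/3* cKO vs. control + vehicle it ran from 0 to 2 when samples were left out, with 0 without control + vehicle replicate 2 and 1 without replicate 1, and with the replicate block it was 0 in place of 2. For the interaction it was 1 (*Tcf7l1*) with a pseudocount of 10 and with an adjusted p below 0.05, in place of 0. The other 3 comparisons gave 0 under every alternative. Of 801 values of single members under alternatives, 762 kept their direction and side of the thresholds, 9 lost a call, 6 gained one and 24 changed sign.

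The replicate block changed no member's call for A83-01 in control organoids, the 1 comparison in which 3 pairs share a label number, and *Ccnd2* was the 1 named pathway gene whose call it changed there. In the other comparisons the block used replicate numbers, which mostly join samples with different label numbers (mean r across genes 0.06 for *Smad2/3* cKO and control + vehicle, 0.13 for the *Smad2/3* cKO groups, −0.02 under A83-01 and 0.10 for *Smad2/3* cKO against control + A83-01). By label number 1 pair could be formed in 3 of these, with r of 0.355 for *Smad2/3* cKO replicate 2 and *Smad2/3* cKO + A83-01 replicate 1, and 0.0774 and 0.0944 for *Smad2/3* cKO replicate 1 with control + vehicle and control + A83-01 replicate 1. A block on 1 pair was not fitted. The block moved the genes called for *Smad2/3* cKO vs. control + vehicle from 970 to 211, with adjusted p of 0.0161 for *Tcf7* and 0.0207 for *Tcf7l1*. Of the named pathway genes only *Tnfrsf19* kept its call there (adjusted p = 0.00517 from limma). *Ephb2*, *Ccnd2*, *Ephb3* and *Myc* lost theirs (adjusted p = 0.0243, 0.0450, 0.0218 and 0.0364 from limma).

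None of the values that changed sign was called. With sample weights *Znrf3* was −0.094 for *Smad2/3* cKO vs. control + vehicle and 0.034 in the interaction, and *Tcf7* was −0.0027 for A83-01 in *Smad2/3* cKO organoids. With the number series as a covariate *Lgr4* was −0.69 in the interaction. The rest crossed 0 when 1 sample was left out. *Lgr5* ran from −0.040 to 2.20 for A83-01 in control organoids and from −0.13 to 0.59 between genotypes under A83-01. *Znrf3* ran from −0.39 to 0.30 and *Rnf43* from −0.39 to 0.086 for *Smad2/3* cKO vs. control + vehicle. For A83-01 in *Smad2/3* cKO organoids the ranges were −0.19 to 0.45 for *Tcf7*, −0.25 to 0.089 for *Lgr4* and −0.37 to 0.079 for *Rnf43*. *Znrf3* ran from −0.33 to 0.13 between genotypes under A83-01, from −0.16 to 0.55 for *Smad2/3* cKO against control + A83-01 and from −0.47 to 0.21 in the interaction, and *Lgr4* ran from −0.95 to 0.029 and from −0.048 to 1.13 in the last 2 of these. The causes were not tested.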
